A study of Mus musculus with 8 samples.

Results

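The genes described here encode the plasma membrane and lysosomal carriers of amino acids, neurotransmitters, organic osmolytes and nucleosides. They were chosen by symbol: every gene whose single symbol in the array annotation begins with Slc1a, Slc3a, Slc6a, Slc7a, Slc28a, Slc29a, Slc36a, Slc38a or Slc43a followed by a digit. The rule found 68 of 18193 measured genes. Of these, 65 are named as carriers or their subunits. The other 3 (Slc7a6os, Slc36a1os and Slc6a19os) are named as opposite strand genes of carriers and are not counted among the carriers. Each gene is represented by the probe set with the highest mean over all arrays.

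RNA came from choroid plexus of the fourth ventricle at embryonic day 13, from mice of mixed background whose sex was not determined. There were 4 arrays labelled as Otx2 k.o., from a published Otx2-deficient strain, and 4 labelled Wildtype, drawn from the same litters and given no treatment. The labels call each array a biological replicate, but whether a sample was 1 embryo or a pool, and how, where and when Otx2 was deleted, are not stated in the labels. Values are log2 expression levels after RMA, a procedure that brings the distributions of the arrays together, so array medians lay between 5.85 and 5.90. Differences are knockout-labelled minus wildtype on that scale, and a gene was called at a Benjamini-Hochberg adjusted p under 0.05 over all genes in limma's moderated test.

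Otx2, the targeted gene, did not fall. Its probe set read 12.39, 12.46, 12.44 and 12.48 on the knockout-labelled arrays and 11.998, 12.05, 11.97 and 11.85 on the wildtype arrays, a difference of 0.47 (SE 0.06, adjusted p = 0.000648). The labels do not say whether its probes lie inside the deleted part, and outside it they would be no test of genotype. Every direction reported rests on how the arrays were labelled, and that group is named knockout-labelled for this reason.

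The choroid plexus epithelium stands between blood and cerebrospinal fluid and sets the amino acid, transmitter and nucleoside content of that fluid. Carriers of the Slc1 and Slc6 families use the sodium gradient to pull substrates into cells. Members of Slc7 mostly exchange one amino acid for another, and many of them reach the membrane only when joined to a heavy subunit of the Slc3 family. Slc36, Slc38 and Slc43 carry small neutral amino acids, glutamine and branched-chain amino acids, while Slc28 and Slc29 carry nucleosides.

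Of the 68 genes, 16 were called (23.5%), against 19.6% of all genes, so the share called was near the background. The knockout-labelled arrays were higher for 5 of them, against 7.84% of all genes called higher, and lower for 11, against 11.7% called lower. Among the 65 carriers 5 were higher and 10 lower. The median difference was -0.01 over the 65 carriers and 0.00 over all genes. The 2 groups of arrays did not overlap in 18 of the 68 genes, while 24.3% of all genes had groups apart. For scale, 67 of the 277 other Slc genes measured were called (24.2%), 16 higher and 51 lower. Leaving out knockout-labelled replicate 2 raised the number called higher to 10, and leaving out wildtype replicate 2 or wildtype replicate 4 each lowered the number called lower to 7. The share of all genes called moved as well, to 21.6% without knockout-labelled replicate 2. It was 14.8% without wildtype replicate 2 and 14.6% without wildtype replicate 4.

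**Figure D1:**
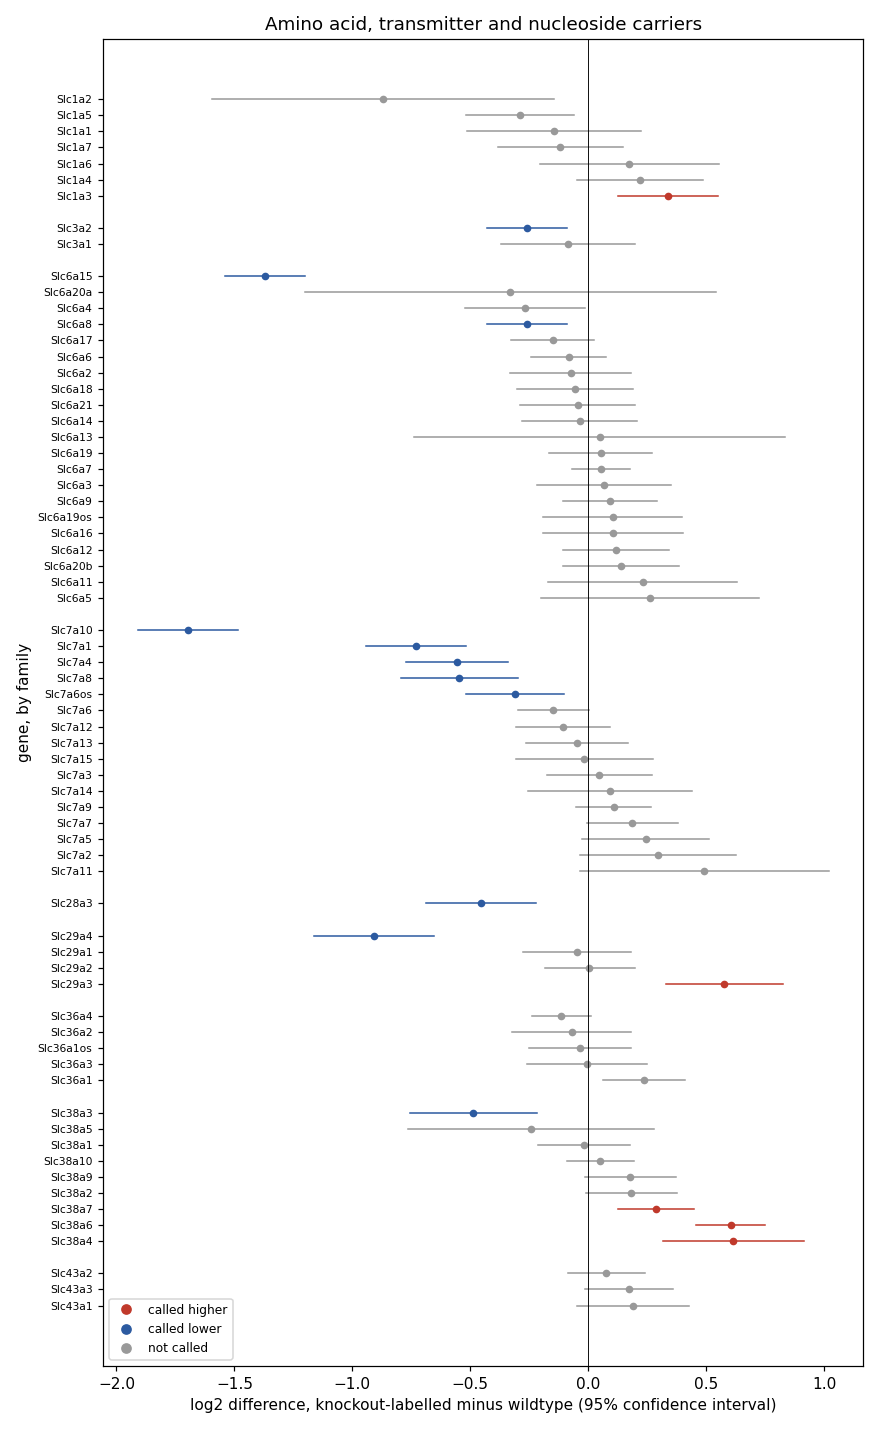
Log2 difference between 4 knockout-labelled and 4 wildtype arrays (horizontal axis) for each of the 68 genes (vertical axis, grouped by family and ordered by difference), with 95% confidence intervals from limma. Blue marks the 11 called lower, red the 5 called higher and grey the others. Slc7a10 at -1.70 and Slc6a15 at -1.37 lie farthest from 0.

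The lower calls were led by Slc7a10, Slc6a15 and Slc29a4 and the higher calls by Slc38a4, Slc38a6 and Slc29a3. The Slc7 family had 4 of 15 carriers lower and 0 higher, at an unadjusted p under 0.05 also 4 and 0. The Slc38 family had 3 of 9 higher and 1 lower. Slc6, the largest family with 20 carriers measured, had 2 lower and 0 higher, 3 and 0 at an unadjusted p under 0.05. Of the 27 carriers whose level lay above the median of all genes 14 were called, where 28.3% of all genes above that median were, and of the 38 at or under it 1 was called, where 10.8% were. These shares are descriptions and were not tested against each other.

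Slc7a10 encodes Asc-1, a light subunit that exchanges small neutral amino acids such as glycine, alanine and serine. It read 7.40, 7.75, 7.69 and 7.82 on the knockout-labelled arrays and 9.39, 9.46, 9.30 and 9.29 on the wildtype arrays. The highest knockout-labelled array lay well under the lowest wildtype array. The difference was -1.70 (SE 0.10, 3.24-fold lower, adjusted p = 7.44e-06). It is the largest difference among the 68 genes in either direction. Without 1 array it ranged from -1.75 to -1.61.

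Slc6a15 encodes a sodium-coupled carrier of branched-chain amino acids and proline known mainly from neurons. Its levels were 10.93, 11.14, 11.14 and 11.23 on the knockout-labelled and 12.39, 12.52, 12.53 and 12.47 on the wildtype arrays. Both groups were tight and far apart (SD 0.13 and 0.07). The difference was -1.37 (SE 0.08, 2.59-fold lower, adjusted p = 6.84e-06). The mean of the neuron marker list lay between 7.76 and 9.34 on the knockout-labelled arrays and between 7.40 and 9.03 on the wildtype arrays, and 0 of its 10 genes were called (limma, 1 at an unadjusted p under 0.05, higher). The part of neurons in the Slc6a15 difference was not tested.

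Slc29a4 encodes ENT4, also called PMAT, a carrier of monoamines and adenosine. The knockout-labelled arrays read 9.35, 9.81, 9.31 and 9.29 and the wildtype arrays 10.39, 10.41, 10.33 and 10.27. Knockout-labelled replicate 2 was the highest of its group and still under every wildtype array. The difference was -0.91 (SE 0.11, 1.88-fold lower, adjusted p = 0.000469). A second, dimmer probe set of the gene gave -1.26.

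Promoter windows of Slc7a10 and Slc29a4 are shown because these genes were among the 3 carriers with the largest differences. Each runs from 250 bases before to 50 bases after an annotated start (RefSeq, GRCm38.p6), with CG dinucleotides in capitals. The window of Slc7a10 is chr7:35186135-35186434 on the plus strand and that of Slc29a4 is chr5:142701851-142702150 on the plus strand.
Slc7a10: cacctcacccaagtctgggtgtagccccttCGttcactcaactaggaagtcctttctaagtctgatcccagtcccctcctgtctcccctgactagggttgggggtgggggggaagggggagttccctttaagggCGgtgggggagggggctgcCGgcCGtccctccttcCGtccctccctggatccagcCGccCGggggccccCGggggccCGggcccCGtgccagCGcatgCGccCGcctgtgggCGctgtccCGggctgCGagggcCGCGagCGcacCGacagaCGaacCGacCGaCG
Slc29a4: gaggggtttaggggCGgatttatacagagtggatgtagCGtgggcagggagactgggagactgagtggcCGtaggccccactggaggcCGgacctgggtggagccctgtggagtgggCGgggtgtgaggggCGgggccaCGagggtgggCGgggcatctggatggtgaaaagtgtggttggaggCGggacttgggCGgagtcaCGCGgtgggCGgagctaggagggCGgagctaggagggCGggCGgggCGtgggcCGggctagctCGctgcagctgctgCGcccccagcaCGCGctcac
The Slc7a10 window holds 24 CG dinucleotides and is 70.7% G and C, and the Slc29a4 window holds 22 and is 70.0% G and C. Over 32851 windows of the table the medians were 7 and 52.7%. The letters TAATCC, the core bound by Otx-type homeodomains, were searched on both strands. They occurred in 7.06% of all windows and in 4 of 76 windows of the 48 carriers with an entry, those of Slc6a13, Slc6a5, Slc29a1 and Slc6a14. None of the 14 windows of the 11 called carriers with an entry held them, 7 windows of 6 genes called lower and 7 of 5 genes called higher. This says only that these letters are not in these windows.

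Heavy subunits carry no substrate but bring their light partners to the membrane. Slc3a2 encodes 4F2hc, or CD98, the partner of most light subunits including Asc-1, LAT1, LAT2 and xCT. It read 9.995, 9.99, 10.15 and 10.08 on the knockout-labelled arrays and 10.35, 10.44, 10.16 and 10.31 on the wildtype arrays. The highest knockout-labelled array lay just under the lowest wildtype array. The difference was -0.26 (SE 0.08, 1.20-fold lower, adjusted p = 0.0382). With the replicate number as a block the adjusted p was 0.0830. Omitting any array but replicate 3 of either group also ended the call, with adjusted p from 0.0683 to 0.111. Slc3a1, the heavy subunit rBAT, was at 4.83 ± 0.25 against 4.92 ± 0.15 (SD, n = 4 each) and was not called.

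Among 10 light subunits 2 were lower, Slc7a10 and Slc7a8, and 0 higher, the same counts as at an unadjusted p under 0.05. Slc7a8 encodes LAT2, an exchanger of large and small neutral amino acids. Its levels were 7.97, 8.02, 8.48 and 8.17 on the knockout-labelled and 8.60, 8.83, 8.69 and 8.71 on the wildtype arrays. The groups did not overlap, with replicate 3 the nearest to the wildtype arrays. The difference was -0.55 (SE 0.11, adjusted p = 0.00729). Slc7a5, which encodes the related carrier LAT1, differed by 0.24 with a 95% interval from -0.03 to 0.51 and was not called. Slc7a6, y+LAT2, differed by -0.15 (adjusted p = 0.168), and a dimmer probe set of it by -0.22 (adjusted p = 0.0343 over all probe sets). Slc7a7, y+LAT1, differed by 0.19 with an interval from -0.01 to 0.38.

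Slc7a1 encodes CAT1, the main carrier of arginine and lysine into most cells. It read 10.41, 9.99, 10.26 and 10.27 on the knockout-labelled arrays and 10.95, 11.06, 10.84 and 10.99 on the wildtype arrays. Every knockout-labelled array lay under every wildtype array. The difference was -0.73 (SE 0.09, 1.66-fold lower, adjusted p = 0.000580), and a second probe set gave -0.76. The related Slc7a4, whose substrate is uncertain, read 8.14, 8.29, 8.60 and 8.43 against 8.84, 8.95, 8.96 and 8.93. The groups were apart, the difference was -0.56 (adjusted p = 0.00291), and both of its dimmer probe sets also passed (-0.71 and -0.68). Slc7a2, the cationic carrier CAT2, was not called at 0.30 (adjusted p = 0.211). Slc7a3, the cationic carrier CAT3, was not called at 0.05.

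**Figure D2:**
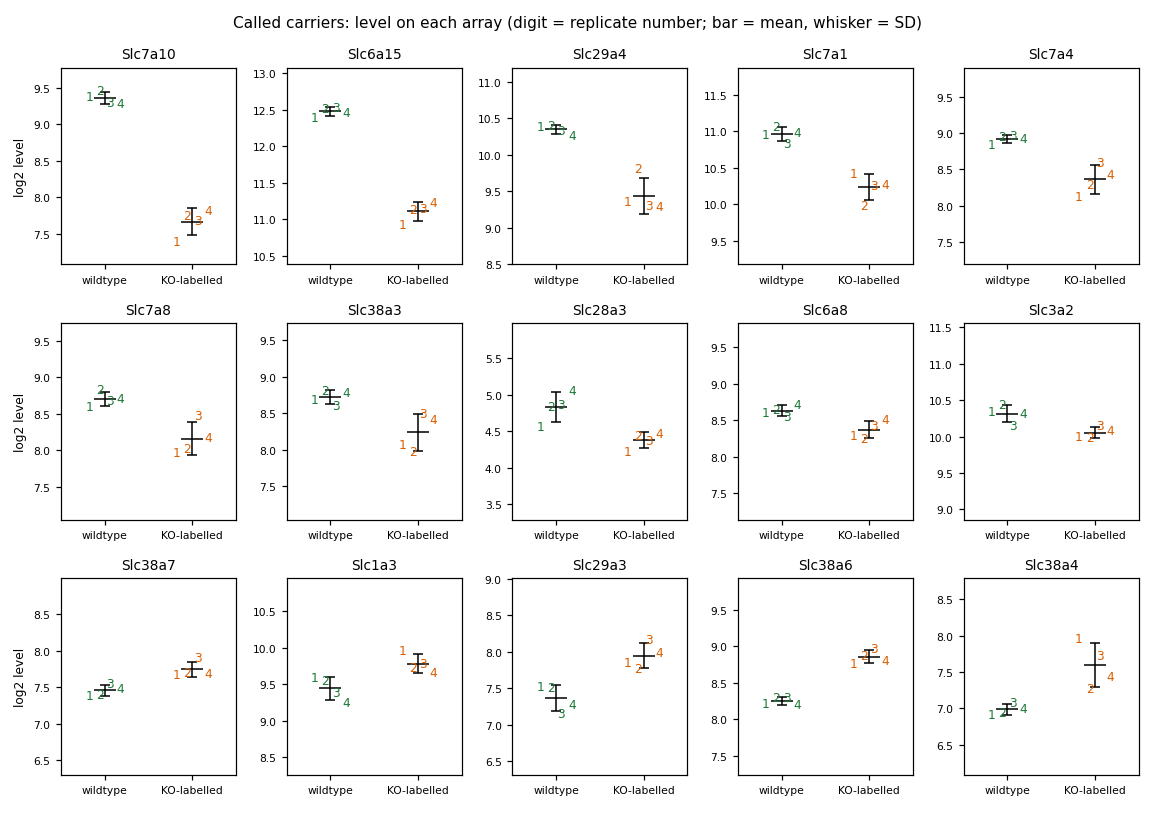
Log2 level (vertical axis, each panel spanning the same number of log2 units) of the 15 called carriers on each of 4 wildtype and 4 knockout-labelled arrays. Digits are replicate numbers, bars are means and whiskers are SD. The groups do not overlap in any panel, and they are farthest apart in Slc7a10, from 9.36 to 7.66.

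Glutamine and other small neutral amino acids are carried by the Slc38 family. Slc38a4, SNAT4, read 7.96, 7.28, 7.73 and 7.44 on the knockout-labelled arrays and 6.92, 6.95, 7.09 and 6.997 on the wildtype arrays. The knockout-labelled arrays were more spread (SD 0.30 against 0.07) and all above the wildtype arrays. The difference was 0.61 (SE 0.13, 1.53-fold higher, adjusted p = 0.0103), and a second probe set gave 0.57. Slc38a6, a less studied member, read 8.77, 8.88, 8.97 and 8.81 against 8.21, 8.29, 8.30 and 8.20. Both groups were tight, and the difference was 0.60 (SE 0.06, 1.52-fold higher, adjusted p = 0.000201). A dimmer probe set of Slc38a6 gave 0.18 and did not pass.

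Slc38a7, a lysosomal exporter of glutamine, read 7.67, 7.71, 7.91 and 7.69 on the knockout-labelled and 7.39, 7.40, 7.55 and 7.48 on the wildtype arrays. The groups were apart by a small margin. The difference was 0.29 (SE 0.07, adjusted p = 0.0214), but it did not pass once wildtype replicate 1 (0.0559) or wildtype replicate 2 (0.0674) was left out. Slc38a3, the system N carrier SNAT3, went the other way, with 8.07, 7.97, 8.50 and 8.41 against 8.69, 8.81, 8.61 and 8.78. The difference was -0.49 (SE 0.12, adjusted p = 0.0184). The call ended when 1 of 3 arrays was omitted: replicate 1 of the knockout-labelled group (0.0564), or replicate 2 (0.0554) or 4 (0.0539) of the wildtype group. A dimmer probe set of Slc38a3 gave -0.08 and did not pass.

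Of the system A carriers, which take up alanine and glutamine with sodium, only Slc38a4 was called on its brightest probe set. Slc38a2, SNAT2, read 10.97, 10.87, 10.84 and 11.16 on the knockout-labelled and 10.82, 10.83, 10.62 and 10.83 on the wildtype arrays. Its groups did not overlap, though the nearest arrays all but met, and the difference of 0.18 was not called (adjusted p = 0.186). A dimmer probe set of Slc38a2 differed by 0.40 (adjusted p = 0.0121 over all probe sets), while a still dimmer one gave -0.115 and did not pass. Slc38a1, SNAT1, differed by -0.02 with a 95% interval from -0.21 to 0.18. These 3 genes lie next to each other on chromosome 15, in the order Slc38a1, Slc38a2 and Slc38a4 (RefSeq, GRCm38.p6, used for gene order).

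Of 5 nucleoside carriers 1 was higher and 2 were lower (60.0% called, against 19.6% of all genes). Slc29a3 encodes ENT3, a carrier of lysosomal membranes. It read 7.86, 7.77, 8.17 and 7.99 on the knockout-labelled arrays and 7.52, 7.51, 7.16 and 7.28 on the wildtype arrays. Every knockout-labelled array was above every wildtype array, and the difference was 0.58 (SE 0.11, 1.49-fold higher, adjusted p = 0.00534). A dimmer probe set gave 0.17 and did not pass. Slc29a3 and Slc29a4, called in opposite directions, differed from each other in their changes by 1.49 log2 units, more than any other such pair within a family.

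Slc28a3 encodes CNT3, which concentrates nucleosides with sodium. It read 4.22, 4.45, 4.37 and 4.47 on the knockout-labelled and 4.57, 4.83, 4.87 and 5.05 on the wildtype arrays. The difference was -0.46 (SE 0.10, adjusted p = 0.0133). These levels lie close to the lower quartile of all probe sets (4.34), and detection calls were not used; its other 2 probe sets, dimmer still, gave -0.03 and -0.23 and did not pass. The widely used plasma membrane carriers Slc29a1 and Slc29a2 differed by -0.05 (95% interval -0.28 to 0.18) and 0.01 (-0.19 to 0.20).

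The Slc6 carriers of monoamines, GABA and glycine had no call. Of 7 measured, 0 passed in limma and 1, Slc6a4, the serotonin carrier, had an unadjusted p under 0.05 (difference -0.27, adjusted p = 0.139). It passed with array weights (adjusted p = 0.0317) and without knockout-labelled replicate 2 (adjusted p = 0.00619), while the other fits that used all arrays called 0 of those they held (1 of the 7 in the fit over genes above the median level, and all 7 otherwise). Slc6a9, the glycine carrier GlyT1, was at 8.18 ± 0.17 against 8.09 ± 0.06, a difference of 0.09 with an interval from -0.11 to 0.29. The noradrenaline carrier Slc6a2 differed by -0.08 and the dopamine carrier Slc6a3 by 0.07. The GABA carriers Slc6a11 and Slc6a13 differed by 0.23 and 0.05.

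The 3 osmolyte carriers of the same family gave 1 small call (33.3%, against 19.6% of all genes). Slc6a8, which takes up creatine, read 8.29, 8.25, 8.43 and 8.51 on the knockout-labelled and 8.60, 8.64, 8.55 and 8.72 on the wildtype arrays. The groups did not overlap, and the difference was -0.26 (SE 0.07, adjusted p = 0.0374). Of the 8 fits that omitted an array it passed only in the one that omitted knockout-labelled replicate 4, and in the others the adjusted p ran from 0.0510 to 0.105. A dimmer probe set of Slc6a8 gave -0.04. Slc6a6, the taurine carrier, was at 10.17 ± 0.10 against 10.26 ± 0.08, a difference of -0.08 with an interval from -0.24 to 0.08.

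Of 5 glutamate carriers of the Slc1 family 1 was called, higher. Slc1a3, the glutamate carrier GLAST of radial glia and astrocytes, read 9.96, 9.73, 9.78 and 9.66 on the knockout-labelled and 9.59, 9.55, 9.39 and 9.25 on the wildtype arrays. The groups were apart, and the difference was 0.34 (SE 0.10, adjusted p = 0.0342). It lost the call on omitting knockout-labelled replicate 1 (0.0895) or 3 (0.0675), and likewise on omitting replicate 3 (0.0915) or 4 (0.0881) of the wildtype group. Of its other 5 probe sets 2 passed in the same direction (0.43 and 0.52).

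Slc1a2, the glutamate carrier GLT-1, read 6.65, 7.73, 6.29 and 6.95 on the knockout-labelled arrays and 8.43, 7.95, 7.36 and 7.36 on the wildtype arrays. The spread within each group was wide and the groups overlapped. The difference of -0.87 was not called (SE 0.32, adjusted p = 0.0943), and it was -1.15 without knockout-labelled replicate 2 (adjusted p = 0.0155) and -1.02 with array weights (adjusted p = 0.0253). The dimmer probe sets of Slc1a2 gave -0.122, 0.095, -0.187 and 0.114 over all arrays, and none passed. In each group the array highest in Slc1a2 was also the highest in the neuron list, whose means on replicates 1 to 4 were 8.27, 9.34, 7.76 and 8.25 in the knockout-labelled group and 9.03, 8.58, 7.62 and 7.40 in the wildtype group. The part of those neuron genes in the values of Slc1a2 was not tested. Slc1a5, the glutamine carrier ASCT2, differed by -0.29 (adjusted p = 0.0797), and it passed when knockout-labelled replicate 1 (0.0186) or wildtype replicate 1 (0.0458) was left out and with array weights (0.0499).

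The remaining families held no called carrier. The proton-coupled Slc36 family had 0 of 4 called in limma and 1 at an unadjusted p under 0.05, the lysosomal carrier Slc36a1. Its difference was 0.24 (adjusted p = 0.0591), and it passed with array weights (0.0188), with quantile normalization (0.0187) and without knockout-labelled replicate 2 (0.0180). Its brightest member, Slc36a4, read 8.93, 8.89, 9.02 and 8.97 on the knockout-labelled and 9.06, 9.06, 9.11 and 9.05 on the wildtype arrays. These groups did not overlap, and the difference of -0.11 was not called (adjusted p = 0.199).

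The Slc43 family, uniporters of branched-chain amino acids and of purine bases, had 0 of 3 called and 0 at an unadjusted p under 0.05, and 0 in the other limma fits with all arrays. Slc43a2, LAT4, read 8.36, 8.16, 8.31 and 8.26 on the knockout-labelled and 8.34, 8.16, 8.10 and 8.19 on the wildtype arrays. The groups overlapped, and the difference was 0.08 (adjusted p = 0.544). Slc43a3, the purine base carrier, differed by 0.17 (adjusted p = 0.194), and by 0.25 without knockout-labelled replicate 2 (adjusted p = 0.0256). Of the opposite strand genes, Slc7a6os was called at -0.31 (adjusted p = 0.0443). It passed in 1 of the 8 fits that omitted an array, that without knockout-labelled replicate 4, with adjusted p from 0.0588 to 0.116 in the other 7, and its second probe set gave 0.00.

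Knockout-labelled replicate 2 lay apart from its group in several carriers, which were singled out after their values were seen. Slc6a20a, a proline carrier, read 6.46, 4.54, 6.31 and 6.15 on the knockout-labelled arrays, against 5.90 to 6.73 on the wildtype arrays. Slc6a13, the GABA and taurine carrier GAT2, read 7.04, 6.09, 7.95 and 7.54, against 6.84 to 7.56. Replicate 2 was the lowest knockout-labelled array in both genes, and it lay under every wildtype array.

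The same array was the lowest of its group in 3 Slc7 carriers that were not called over all arrays and passed without it. Slc7a11, xCT, which imports cystine in exchange for glutamate, differed by 0.49 over all arrays (adjusted p = 0.191) and by 0.72 without that replicate (adjusted p = 0.0143). Slc7a2 differed by 0.46 without it (adjusted p = 0.00150), and also passed with array weights (0.37, adjusted p = 0.0364). Slc7a5 differed by 0.35 without it (adjusted p = 0.0329). These 3 were named after their values were seen, and omitting the lowest knockout-labelled array raises that group's mean. Their passing without it is therefore a description and no support for a difference. Without that replicate 21.6% of all genes were called, against 19.6% over all arrays. Over all arrays a dimmer probe set of Slc7a11 gave 0.002, those of Slc7a2 gave 0.173, 0.025 and 0.17, and none passed. In the stroma list the mean of replicate 2 was 10.91 against 11.09 to 11.29 on the other knockout-labelled arrays, and its neuron list mean was the highest of all 8 arrays. The part of either list in these values was not tested.

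**Figure D3:**
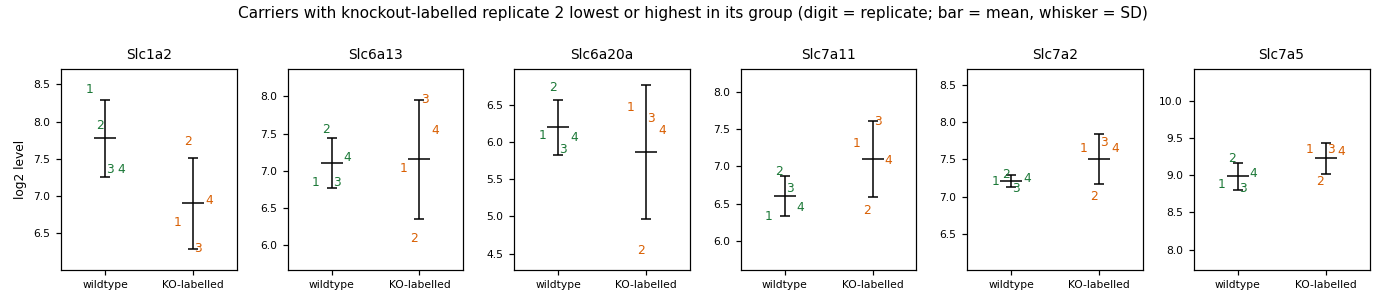
Log2 level (vertical axis, each panel spanning the same number of log2 units) of 6 carriers on each array. Digits are replicate numbers, bars are means and whiskers are SD over 4 arrays. Knockout-labelled replicate 2 is the highest of its group in Slc1a2, at 7.73, and the lowest in the other 5, for example 4.54 in Slc6a20a.

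Markers of the tissue's cell types also differed between the groups. For scale, 7.84% of all genes were called higher and 11.7% lower. Of 10 measured choroid plexus epithelium markers 9 were lower and 0 higher. Ttr, the brightest of the 10, was not called, at 14.17 against 14.21 (difference -0.045, adjusted p = 0.65). Of the 9 lower markers Kl was dim, with a mean of 4.19 on the knockout-labelled arrays, under the lower quartile of probe sets (4.34), and 5.36 on the wildtype arrays. The summed linear level of the epithelium list, which includes Ttr, was 34219 to 38390 on the knockout-labelled and 50410 to 54045 on the wildtype arrays. All 9 markers of multiciliated cells were lower, with sums of 4905 to 6321 against 9748 to 10644. All 10 stroma and meningeal fibroblast markers were higher, with sums of 32276 to 38340 against 22901 to 24410, as were 8 of 10 macrophage markers, with sums of 8436 to 11619 against 5142 to 6086. In tissue RNA of this kind, fewer cells of a type and less RNA per cell cannot be told apart.

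Other lists were closer between the groups. The vascular endothelium list, with 1 of 10 higher and 3 lower, had sums of 6329 to 7214 against 6932 to 8164. Pericyte and smooth muscle markers had 3 of 10 higher and 2 lower, with sums of 5719 to 6554 against 5494 to 5703. The neural progenitor and glia list had 2 of 8 higher and 1 lower (sums 12299 to 14008 against 9024 to 12183), and erythroid markers had 0 of 8 higher and 1 lower (25650 to 31976 against 28934 to 31217). Neuron sums ran from 2374 to 8214 against 1954 to 5855. Of all these markers 1, Hba-a1, lay under that quartile in its mean over all arrays. The part of any of these cell types in the carrier values was not tested.

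**Figure D4:**
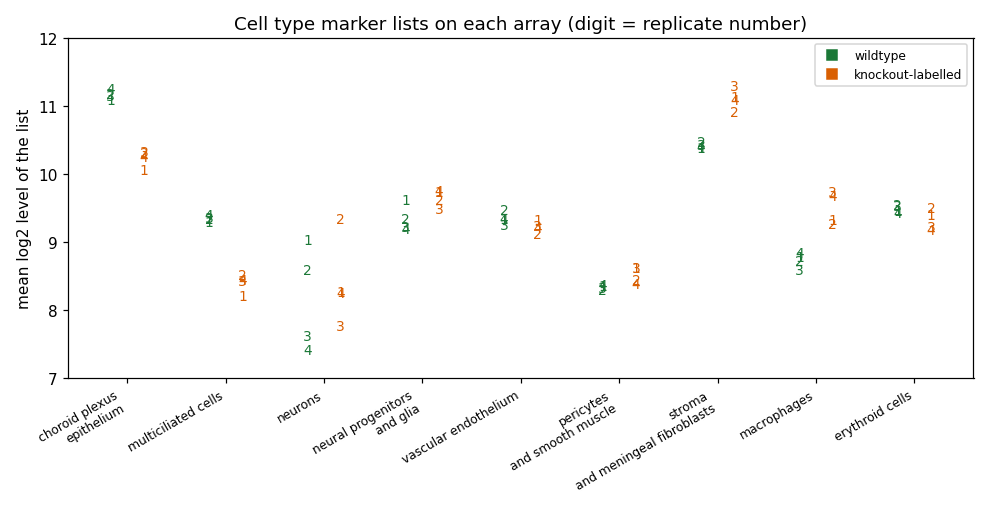
Mean log2 level (vertical axis) of 9 marker lists (horizontal axis) on each array, with replicate numbers as digits, wildtype in green and knockout-labelled in orange. The epithelium list lies at 11.08 to 11.24 in the wildtype and 10.05 to 10.33 in the knockout-labelled arrays, and the neuron list spreads from 7.40 to 9.34.

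Genes that work beside the carriers were read from 6 lists. For scale, 19.6% of all genes were called, 7.84% higher and 11.7% lower, and the shares of the lists were not tested against these. Of 13 amino acid and peptide carriers outside the 9 families 3 were lower and 0 higher (23.1% called, median -0.02). At an unadjusted p under 0.05 3 were lower and 2 higher. Slc16a10, TAT1, a carrier of aromatic amino acids, went from 11.25 ± 0.05 to 9.94 ± 0.20, a difference of -1.32 (adjusted p = 2.52e-05). The mitochondrial exchangers of aspartate and glutamate, Slc25a13 and Slc25a12, were lower by differences of -0.84 and -0.60. Of the 2 other probe sets of Slc25a12, 1 differed in the same direction and 1 in the opposite one. Of 8 vesicular transmitter carriers 0 were called in limma and 2 had an unadjusted p under 0.05, both lower, with a median of -0.03. The nearest, the monoamine carrier Slc18a1, had an adjusted p of 0.0627.

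Transmitter enzymes had 8 of 17 called (47.1%, against 19.6% of all genes), 5 higher and 3 lower (median 0.03). Gad1, which makes GABA, read 6.98, 7.25, 7.34 and 7.09 on the knockout-labelled and 6.31, 4.93, 5.51 and 3.74 on the wildtype arrays, a difference of 2.05 (adjusted p = 0.00975), while a second probe set gave 0.27. Hnmt, which breaks down histamine, rose by 0.63. Gldc, of the glycine cleavage system, changed by -0.89, and Gcsh of the same system rose by 0.36 (adjusted p = 0.0163). Gcsh lost its call when wildtype replicate 2 (0.0530) or 3 (0.0511) was omitted. Maob, a monoamine oxidase, changed by -0.50, and the related Maoa rose by 0.24 (adjusted p = 0.0407). Maoa kept its call in 1 of the 8 fits that omitted an array, that without knockout-labelled replicate 2, with adjusted p up to 0.109 in the others. The call of Maoa also ended with the replicate block (0.0651), with arrays centred on their medians (0.0767) and with probe sets averaged (0.131). 

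Of 15 genes of glutathione, taurine and creatine synthesis 2 were higher and 3 lower (33.3% called, against 19.6% of all genes, median -0.10). Gatm, the first enzyme of creatine synthesis, rose by 0.59, and Gamt, the second, by 0.25 (adjusted p = 0.0286). Omitting knockout-labelled replicate 1 or 3 or any single wildtype array ended the call of Gamt, with adjusted p from 0.0510 to 0.0879. Gsr, which restores reduced glutathione, changed by -0.50 and Gadl1, a decarboxylase, by -0.83.

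Of 18 nucleoside enzymes and adenosine receptors 3 were higher and 2 lower (27.8% called, against 19.6% of all genes, median 0.04). Ampd3, an AMP deaminase, rose by 1.06 and Uck2, a uridine and cytidine kinase, by 0.26. Averaging the probe sets of each gene ended the call of Uck2 (adjusted p = 0.0974). Leaving out probe sets whose names end in x_at, s_at or a_at also ended it (0.0562). Nt5c2, a nucleotidase, changed by -0.69 and Pnp, purine nucleoside phosphorylase, by -0.23 (adjusted p = 0.0342). Pnp lost its call when replicate 1, 2 or 3 of the knockout-labelled group was omitted, or replicate 2 or 4 of the wildtype group, with adjusted p from 0.0535 to 0.102.

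Of 19 genes of the amino acid response and serine synthesis 3 were higher and 1 lower (median -0.01). That is 21.1% called, near the 19.6% of all genes. Nupr1, a stress-induced nuclear protein, rose by 1.64, with 7.65, 7.04, 8.82 and 8.41 on the knockout-labelled and 6.21, 6.29, 6.19 and 6.67 on the wildtype arrays. Shmt2, a mitochondrial serine enzyme, rose by 0.32 (adjusted p = 0.0332). Shmt2 lost its call when replicate 1, 3 or 4 of the knockout-labelled group was omitted, or replicate 2, 3 or 4 of the wildtype group (adjusted p from 0.0543 to 0.0926), as did centring the arrays on their medians (0.0516) and leaving out probe sets shared between transcripts (0.183). Vldlr, a lipoprotein receptor, changed by -1.19 (adjusted p = 1.84e-05).

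**Figure D5:**
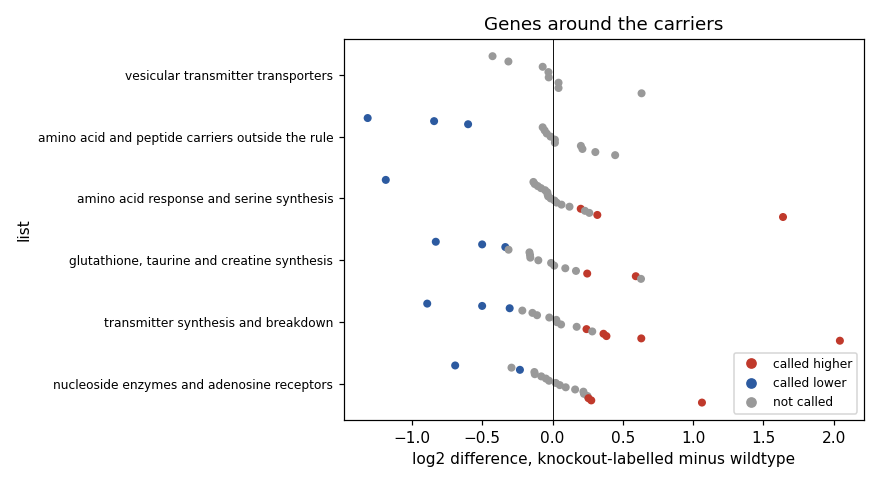
Log2 difference (horizontal axis) of each measured gene in 6 lists around the carriers (vertical axis), 4 knockout-labelled minus 4 wildtype arrays. Blue is called lower, red called higher and grey not called. Gad1 at 2.05 and Slc16a10 at -1.32 mark the ends of the range.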

How the data were processed

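For each probe set the authors deposited a log2 level, and RMA is the method named in the submitters' processing notes. Software version and filters are not stated there, and detection calls were not used. Of 45101 probe sets, 34945 had 1 gene in the platform annotation, giving 18193 genes. Each gene was represented by its probe set of highest mean level.

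All genes were fitted together with limma 3.58.1 in R 4.3.3 (lmFit, then eBayes; the labelled genotype was the sole term and tests were two-sided). With 4 arrays per group, the number of arrays limits the precision. Whether replicates were independent animals is known only from the labels, so p-values measure the spread between these arrays. The members and lists were chosen with earlier results of these data known.

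Every called member, the brightest carrier of each family and Slc3a2 were named, with up to 2 called genes per direction in each list. Other names were chosen after their values were seen. No protein sequence was used. Same-numbered arrays of the groups correlated weakly in their deviations across genes (r = 0.131 to 0.232, each over 0.1). Other pairs ran from -0.296 to 0.294, and the highest was knockout-labelled replicate 3 with wildtype replicate 4. Of 8 arrays 5 correlated best with their own number, so these values do not settle a pairing by number. The replicate number was added as a block in a second fit. This pairing comes from the values, not the labels. Alternatives were the block, array weights, a trended robust prior, probe set choice, a dim-gene filter, normalization, thresholds and leaving out each array. The procedure was tested on data simulated with independent noise for each gene and array. It called 70% of seeded differences of 0.5 and 95% of those of 1.0, with 7 false calls. Any deviations shared between arrays were not simulated.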

Additional observations from a re-analysis of the deposited data

Results flagged for a closer look

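In each group of 4 arrays, an array was noted when its distance to the nearest other array, as a share of the group's range, exceeded Dixon's 95% critical value. Over 136 groups of 4, chance gives about 1 in 20, and 8 were found. Knockout-labelled replicate 2 was the array in 4 of the 8. It was high in Slc29a4 (9.81 against 9.29 to 9.35) and low in Slc6a20a (4.54 against 6.15 to 6.46), Slc7a2 (7.01 against 7.65 to 7.73) and Slc7a5 (8.92 against 9.32 to 9.34). Wildtype replicate 3 was low in Slc38a2 (10.62 against 10.82 to 10.83). Knockout-labelled replicate 1 was high in Slc38a5 (6.93 against 6.04 to 6.18), replicate 3 high in Slc38a7 (7.91 against 7.67 to 7.71) and replicate 4 low in Slc7a15 (4.03 against 4.46 to 4.55).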

How the results depend on the processing

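The number of the 68 genes called higher was 5 and the number called lower 11. Without 1 array these ranged from 4 to 10 and from 7 to 10, while the share of all genes called ranged from 14.6% to 21.6%. At an adjusted p under 0.01 the numbers higher and lower were 2 and 6, and with at least a 1.5-fold difference 2 and 4. With the replicate block they were 5 and 10, and the block changed no call of a named carrier other than that of Slc3a2. Of the 16 called genes, 10 kept their direction and call in every one of the 16 other fits that held them, and 6 lost the call in at least 1 fit: Slc1a3, Slc38a3, Slc38a7, Slc3a2, Slc6a8 and Slc7a6os. With the mean of probe sets Slc43a2, not called in any fit, changed sign to -0.077, and Slc1a3 (adjusted p = 0.0526), Slc38a3 (0.0672), Slc6a8 (0.153) and Slc7a6os (0.329) were not called. Without probe sets whose names end in x_at, s_at or a_at Slc1a3, whose brightest is an x_at set, was not called (0.250). Slc3a2 could not be fitted there, and with array weights Slc7a6os was not called (0.0621). Slc28a3 and Slc7a6os are too dim to enter the fit over genes above the median level. The causes of these changes were not tested. Low levels cannot be separated from background here.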
